A study of Mus musculus with 6 samples.

Results

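The genes described here are 6 genes of the Na/K-ATPase, the sodium pump, around the antigen that was used to sort cells of the neonatal mouse cerebellum. They are the β subunit genes Atp1b1, Atp1b2 and Atp1b3 and the FXYD genes Fxyd1, Fxyd6 and Fxyd7. The members were chosen by name, and all 6 were found among the 34836 gene names of the array, each with 1 probe printed as 1 spot. Atp1b2 encodes the surface protein that carries the epitope of the ACSA-2 antibody, so its level is a check of the sort and not an independent finding.

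The sodium pump moves sodium out of cells and potassium in, at the cost of ATP. Its α subunit carries out catalysis and transport, its glycosylated β subunit is needed for folding and delivery to the plasma membrane, and small single-pass FXYD proteins bind the pump and adjust its kinetics. In brain, ATP1B2, also known as adhesion molecule on glia (AMOG), is typical of astrocytes, whereas ATP1B1 is found in neurons and in many other cell types. In the postnatal cerebellum, cells with GLAST, the glutamate transporter encoded by Slc1a3, include Bergmann glia, other astrocytes and their precursors.

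The study compared A+/G+ and A-/G+ fractions of dissociated cerebella, with 3 samples each, all from wild-type CD1 mice of either sex at postnatal day 1 to 3 according to the sample labels. The methods of the study give an earlier age window and another strain background, and which one applied could not be settled here. A+/G+ cells (ACSA-2 positive, GLAST positive) were taken in 1 step with beads against ACSA-2 and were not selected on GLAST as well. A-/G+ cells (ACSA-2 negative, GLAST positive) were what remained after depletion with beads against L1CAM, ACSA-2, CD45, PSA-NCAM and Ter119, followed by selection with anti-GLAST beads. Both fractions therefore differ in the steps of the sort as well as in ACSA-2, no sample was left unsorted, and cerebella of several pups were pooled. RNA of 50000 cells per sample was amplified from its poly(A) tail, labelled with Cy3 and hybridized to 6 one-colour whole-genome Agilent arrays of 60-base probes. Whether the samples came from separate litters or sorts is not given in the labels, so the p-values below measure the spread between these samples. Slide 1 carried the A+/G+ samples and slide 2 the A-/G+ samples, so an effect of the slide cannot be told apart from that of the fraction.

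The arrays of both fractions differed in brightness before normalization. The 75th percentile of the signal was 332 to 334 on the A+/G+ arrays and 56.6, 113 and 251 on replicates 1, 2 and 3 of A-/G+. Accordingly, 26469 to 26654 probes were well above background on the A+/G+ arrays and 18336 to 24730 on the A-/G+ arrays. Of the sort's antigens, Slc1a3 had log2 signals of 13.26, 13.31 and 13.61 in A+/G+ and 14.85, 14.92 and 14.00 in A-/G+. The difference was -1.19 with an adjusted p of 0.0733 (limma). Slc1a3 was thus read strongly in both fractions, and its higher mean in A-/G+ did not pass the test.

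The values below rest on the following stretches of the probes, printed 5′ to 3′ on the strand of the transcript because each gene was read by a single probe. Capitals mark AATAAA, the hexamer of the polyadenylation signal.
Atp1b1, bases 31 to 60 of the probe: ttacactagcttctgcatttaataggttag
Atp1b2, bases 26 to 55: agggtaaagtacAATAAActgagagcgatt
Atp1b3, bases 31 to 60: atatttaaaaatactattgggctgactttg
Fxyd1, bases 24 to 53: gctcagacctctAATAAAactcggttttcc
Fxyd6, bases 31 to 60: gggactgctgatctctgtcttgtgatctat
Fxyd7, bases 31 to 60: aggtctgagagcccaacatgcaaatcctgt

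The hexamer was searched on the probe strand. It was present in the probes of Atp1b2 and Fxyd1 and in 10.1% of the 55681 probes of the array. In the mm9 coordinates of the array design, the 60 bases of each probe lay at chr1:166368263-166368322 (minus strand) for Atp1b1, chr11:69413253-69413312 (minus) for Atp1b2 and chr9:96233316-96233375 (minus) for Atp1b3. The FXYD probes lay at chr7:31836699-31836758 (minus) for Fxyd1, chr9:45204134-45204193 (plus) for Fxyd6 and chr7:31829612-31829767 (minus) for Fxyd7. The last of these covers 156 bases of the genome with 60 bases of probe, so its target is split by a stretch that the transcript lacks. Whether the other targets are coding or untranslated was not read from an annotation of this build here. In the order of RefSeq genes, Fxyd7 and Fxyd1 are direct neighbours on chromosome 7, and Fxyd6 lies next to Fxyd2 on chromosome 9.

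Within the β subunits, the fractions carried opposite patterns. Atp1b2 and Atp1b3 were higher in A+/G+ cells, by 2.16 ± 0.18 and 0.73 ± 0.087 on the log2 scale (difference ± SE, n = 3 per fraction), and Atp1b1 was higher in A-/G+ cells by a similar amount to Atp1b2, with a difference of -2.14 ± 0.20. Throughout, a difference is the mean log2 signal of A+/G+ minus that of A-/G+ after quantile normalization, and a call needs a p-value of at most 0.05 after Benjamini-Hochberg adjustment over all 55681 probes (limma). Of the 6 genes, 2 were called with the higher mean in A+/G+ cells (Atp1b2 and Atp1b3) and 2 with the higher mean in A-/G+ cells (Atp1b1 and Fxyd6). By the same rule, 4.65% of all probes were called in favour of A+/G+ and 4.64% in favour of A-/G+. These shares include dim probes: 17949 of the 55681 were well above background on all 6 arrays, as were 5 of the 6 genes. They are thus not a like-for-like base. For these 4 genes the 3 arrays of one fraction did not overlap the 3 of the other. The share of all probes without such overlap was not counted, so this is no mark of these genes. Of the 55681 probes, 12974 had an unadjusted p under 0.05 (limma). When quantile normalization was replaced by a shift of each array to the same 75th percentile, the split over all probes moved from 2589 higher and 2583 lower in A+/G+ cells to 1227 and 2658, and 1 gene remained called in each direction, namely Atp1b2 and Atp1b1.

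**Figure D1:**
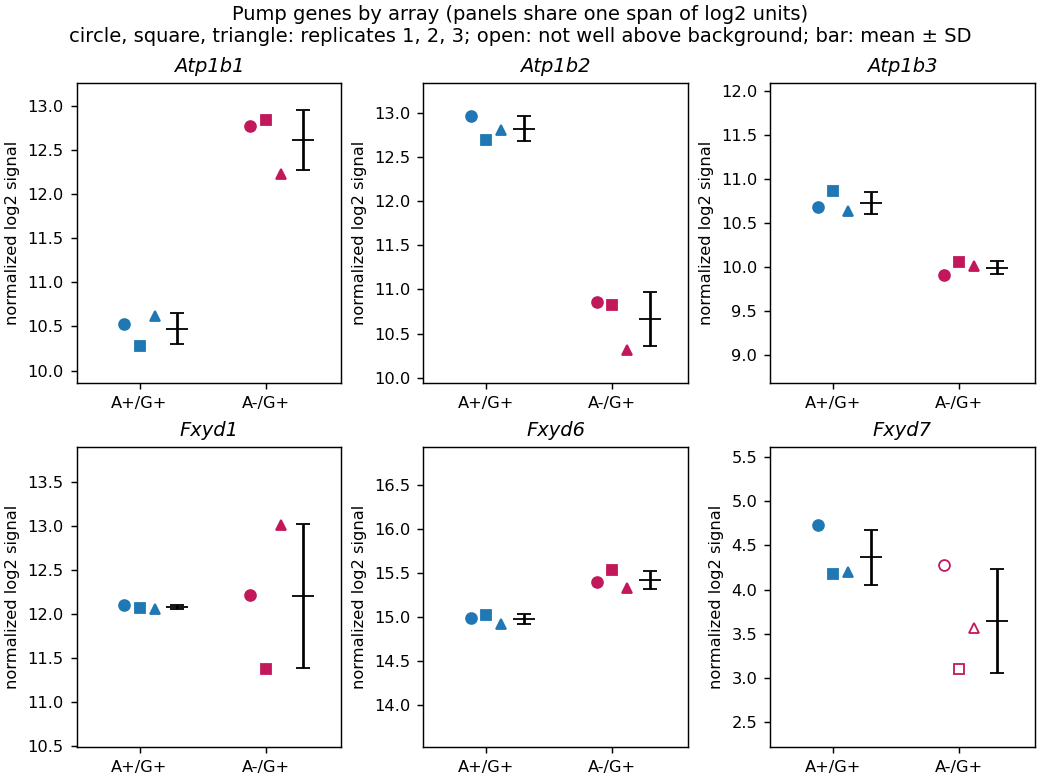
Normalized log2 signal (y axis) of the 6 genes on each array, by fraction (x axis), with the mean ± SD of the 3 arrays beside the points; every panel spans the same number of log2 units. Atp1b1 and Atp1b2 separate the fractions in opposite directions by more than 2 log2 units, Atp1b3 and Fxyd6 separate them by less than 1, and in Fxyd1 and Fxyd7 the fractions overlap.

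Atp1b2, the gene of the ACSA-2 antigen, had log2 signals of 12.97, 12.70 and 12.81 on A+/G+ replicates 1, 2 and 3 and of 10.86, 10.82 and 10.31 on those of A-/G+. All 3 A+/G+ arrays lay above all 3 A-/G+ arrays, so the libraries followed the labels of the sort. The mean difference was 2.16 with a 95% confidence interval of 1.69 to 2.63 and an adjusted p of 0.00725 (limma), and the medians were 3.95-fold apart. It exceeded in size the differences of 97.5% of all probes. The signal in A-/G+ was nevertheless well above background on all 3 arrays, so transcript of the antigen was read in the fraction depleted of ACSA-2. In bulk samples such as these, fewer cells with a transcript and less transcript per cell cannot be told apart.

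Atp1b1, the β1 subunit, had log2 signals of 10.52, 10.28 and 10.62 in A+/G+ and of 12.77, 12.84 and 12.23 in A-/G+. Every A-/G+ array exceeded every A+/G+ array, and the closest values were those of replicate 3 of both fractions. The difference of -2.14 had a 95% confidence interval of -2.66 to -1.62 and an adjusted p of 0.00924 (limma), with medians 4.75-fold apart. Atp1b1 was the 1 member past both limits used in the study's methods, which ask for a 4-fold gap between medians besides the adjusted p. Those limits together were passed by 0.399% of all probes in the direction of Atp1b1 and by 1.53% in the direction of A+/G+. Atp1b2 stayed just under the fold limit with all arrays, and its medians were 4.06- to 4.71-fold apart without A+/G+ replicate 2 or 3 or without A-/G+ replicate 1 or 2. For Atp1b1 the medians were 3.92-fold apart without A-/G+ replicate 2, just under the limit, and 4.03- to 5.21-fold apart when any other array was left out.

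Atp1b3, the β3 subunit, had log2 signals of 10.68, 10.86 and 10.64 in A+/G+ and of 9.91, 10.05 and 10.02 in A-/G+. The gap between the fractions was smaller than for the other β subunits, but the arrays of each fraction lay close together, with an SD of 0.12 and 0.08. The difference of 0.73 had a 95% confidence interval of 0.51 to 0.96 and an adjusted p of 0.0143 (limma), with medians 1.58-fold apart. The adjusted p (limma) was 0.0570 without A+/G+ replicate 1, 0.0535 without A+/G+ replicate 3 and 0.0501 after the shift to the 75th percentile. The difference stayed between 0.67 and 0.78 over all 14 alternative settings, some of which alter only the test and cannot change it.

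Since brightness differed between the fractions, the β subunits were also set against each other within each array, where a shift of the whole array cancels. A difference in brightness that is not such a shift does not cancel. Each change restates the differences of the single genes given above and is not further support for them. Both pairs with Atp1b2 hold the gene of the antigen used for the sort. Signals of different probes are not on 1 scale, so only the change between fractions is read. Atp1b2 minus Atp1b1 was 2.45, 2.42 and 2.18 log2 units on the A+/G+ arrays and -1.91, -2.02 and -1.92 on the A-/G+ arrays. The β2 to β1 balance was therefore 4.30 log2 units higher in A+/G+, with SDs of 0.14 and 0.06 in A+/G+ and A-/G+. Atp1b2 minus Atp1b3 was 2.29, 1.83 and 2.17 in A+/G+ and 0.95, 0.77 and 0.29 in A-/G+, a change of 1.43. Atp1b1 minus Atp1b3 was -0.15, -0.59 and -0.01 in A+/G+ and 2.86, 2.79 and 2.21 in A-/G+, a change of -2.87. In none of these 3 pairs did the fractions overlap. For the pairs with Atp1b1 this had to be so, since the genes of each pair separated the fractions in opposite directions. The share of all gene pairs without overlap was not counted, so this is no mark of these pairs. The exact two-sided permutation p was 0.1 for each pair and 0.1 after adjustment over the 3 pairs, which is the smallest value that 3 against 3 arrays allow, so this design cannot reach 0.05. Over 10 alternative settings the changes ranged from 4.21 to 4.40, from 1.22 to 1.57 and from -3.06 to -2.71.

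**Figure D2:**
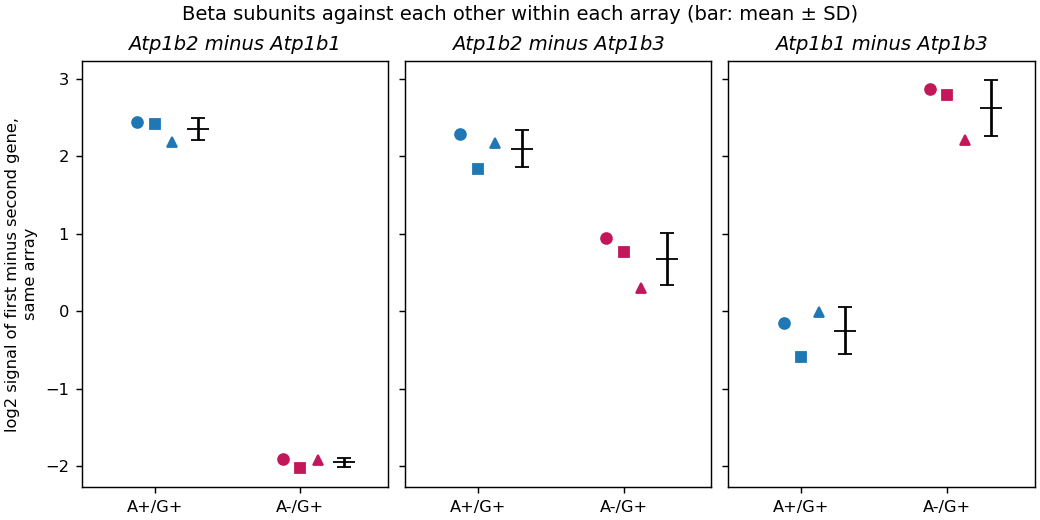
Difference of the log2 signals of 2 β subunit genes on the same array (y axis) for the 3 pairs, by fraction (x axis), with mean ± SD of the 3 arrays; the zero of each panel depends on the probes and is not interpreted. The pair of Atp1b2 and Atp1b1 changed by 4.30 log2 units between fractions, and the arrays of the fractions do not overlap in any pair. These changes follow from the differences of the single genes, and Atp1b2 is the gene of the antigen used for the sort.

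Of the 3 FXYD genes, 1 was called. Fxyd6, which encodes phosphohippolin, a FXYD protein of the brain, was higher in A-/G+, whereas Fxyd1 (phospholemman) and Fxyd7, a brain FXYD protein, did not pass the test. Log2 signals of Fxyd6 were 14.99, 15.02 and 14.92 in A+/G+ and 15.39, 15.53 and 15.33 in A-/G+. No array of one fraction reached into the range of the other, and no spot was saturated. The difference of -0.44 had a 95% confidence interval of -0.63 to -0.25 and an adjusted p of 0.0327 (limma), with medians 1.32-fold apart. Its call was lost in 8 of 14 alternatives, beside 4 for Atp1b3 and 1 each for Atp1b1 and Atp1b2. The adjusted p was 0.108, 0.111 and 0.121 without A+/G+ replicate 1, 2 or 3, 0.0748 and 0.0590 without A-/G+ replicate 1 or 2, and 0.0501 after the 75th percentile shift, which enlarged the difference to -0.82. That shift also moved the median difference of all probes from -0.04 to -1.02, and relative to that median Fxyd6 was 0.40 lower in A+/G+ under quantile normalization but 0.20 higher under the shift. Relative to the median of the probes well above background on all arrays, which moved from -0.12 to -0.16, it was lower in A+/G+ under both, at -0.32 and -0.66. Atp1b1, Atp1b2 and Atp1b3 kept their directions relative to either median, with Atp1b1 at -1.19, Atp1b2 at 3.10 and Atp1b3 at 1.72 against the median of all probes after the shift.

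Fxyd1 differed between the A-/G+ samples more than between the fractions. Its log2 signals were 12.10, 12.07 and 12.05 in A+/G+ and 12.22, 11.37 and 13.01 in A-/G+. The A+/G+ arrays fell inside the range of the A-/G+ arrays, and the SD was 0.02 within A+/G+ against 0.82 within A-/G+. The difference of -0.12 had a 95% confidence interval of -1.23 to 0.98 and an adjusted p of 0.879 (limma), which leaves room for a change of more than 2-fold in A-/G+. Without A-/G+ replicate 3 its sign turned, to 0.28 with an adjusted p of 0.548. Without A-/G+ replicate 2 it was -0.54 with an adjusted p of 0.370.

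The order of the A-/G+ arrays in Fxyd1, with replicate 2 lowest and replicate 3 highest, was found in the mean log2 signal of several marker lists and was not particular to any of them. For A-/G+ replicates 1, 2 and 3 the mean was 10.57, 9.06 and 11.24 over the choroid plexus list, 6.21, 5.32 and 6.37 over the ependymal list and 5.21, 5.05 and 6.71 over the pericyte and smooth muscle list. It was 9.31, 9.15 and 10.09 over the pan-neuronal list, 8.49, 8.42 and 9.79 over the granule neuron list and 7.94, 7.87 and 8.93 over the oligodendrocyte lineage list. The astrocyte list (11.85, 12.18 and 11.30) and the Bergmann glia list (11.20, 11.33 and 10.85) ran the opposite way. The Purkinje cell, endothelial and microglia lists followed neither order. Choroid plexus genes, chosen after their values were seen, are given as an example of these lists. On A+/G+ replicates 1, 2 and 3 the mean over this list was 10.35, 10.16 and 9.77, beside 12.10, 12.07 and 12.05 for Fxyd1. The choroid plexus epithelium, which secretes cerebrospinal fluid, is known to express phospholemman. Folr1, its folate receptor gene, had log2 signals of 11.35, 9.86 and 12.46 on A-/G+ replicates 1, 2 and 3, and of 11.03, 10.57 and 10.26 on A+/G+ replicates. Otx2, Clic6, Kcnj13 and Kl were likewise lowest on A-/G+ replicate 2 and highest on A-/G+ replicate 3. Ttr (transthyretin) was lowest on replicate 2 as well, at 14.37, but was higher on replicate 1 (15.62) than on replicate 3 (15.35). Of the 6 choroid plexus markers, 0 were called between the fractions in either direction by limma, 0 had an unadjusted p under 0.05 and 0 were called by the methods' t-test, and their summed normalized signal (on the linear scale) ranged from 24633 to 38788 in A+/G+ and from 23442 to 56344 in A-/G+. None of these markers was below background on all arrays of a fraction. The part of these or the other lists' cell types in the Fxyd1 values was not tested.

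**Figure D3:**
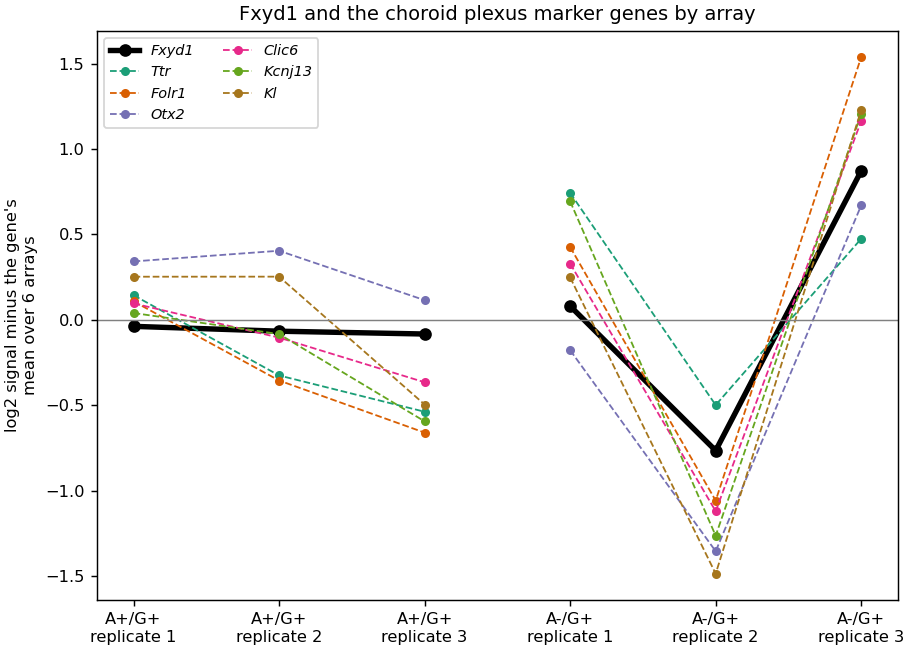
Log2 signal of Fxyd1 (thick line) and of the 6 choroid plexus marker genes (dashed) on each array (x axis), each minus its own mean over the 6 arrays (y axis); lines join arrays of 1 fraction for legibility, and replicates have no order. On A-/G+ replicate 2 all 7 genes are at their lowest within that fraction, and on A-/G+ replicate 3 all except Ttr are at their highest.

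Fxyd7 was read near the limit of the arrays. Its log2 signals were 4.73, 4.17 and 4.20 in A+/G+, all well above background, and 4.28, 3.10 and 3.56 in A-/G+, where no array read it well above background. The fractions overlapped at A-/G+ replicate 1. The measured difference of 0.72 had a 95% confidence interval of -0.18 to 1.62 and an adjusted p of 0.320 (limma). The size of the difference depended on the processing, at 0.098 with normexp background correction, 0.35 after the 75th percentile shift, and 0.45 to 1.14 when 1 array was left out (1.14 without A-/G+ replicate 1 and 0.45 without A-/G+ replicate 2). The lowest signals well above background on the A-/G+ arrays corresponded to log2 values of 5.64, 4.95 and 4.03, and their mean exceeded that of Fxyd7 in A+/G+, so not even a lower bound on a fold can be given.

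A list of 22 other genes of the pump, its relatives and ion transport in glia was read by the same rule, using the brightest probe per gene. Of the 22, 4 were called in favour of A+/G+ and 2 in favour of A-/G+, beside 4.65% and 4.64% of all probes, 16 were not called, and the median difference was -0.04, beside -0.04 over all probes and 0.30 over the 6 members. As above, the shares of all probes include dim ones.

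Kcnj10, the inward rectifier potassium channel Kir4.1 of astrocytes, was higher in A+/G+ by 1.47 ± 0.20 (SE; adjusted p 0.0204, limma), with 13.64 to 13.78 against 11.81 to 12.54 in A-/G+. Calls were also made in the NKAIN family, whose proteins bind β subunits of the pump. Nkain3 was higher in A-/G+, with a difference of -1.31 and an adjusted p of 0.0413 (limma). The other Nkain3 probe, not well above background on any array, gave -0.26 with an adjusted p of 0.557 (limma). Nkain2 was called higher in A+/G+ by 1.86 with an adjusted p of 0.0163, but its probe was well above background on 1 of the 6 arrays, an A+/G+ array, and its other 3 probes gave -0.86, 0.97 and -0.05. The 2 further NKAIN genes were not called, with -0.13 for Nkain1 and -0.63 (adjusted p 0.0940) for Nkain4. After the 75th percentile shift Kcnj10, Nkain2 and Nkain3 kept their signs, also relative to the median of all probes (2.34, 1.85 and -0.28), and Nkain2 lost its call (0.84, adjusted p 0.207).

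Among the FXYD genes of the list, Fxyd5 (dysadherin) had a difference of -1.04 with an adjusted p of 0.0704 although the fractions did not overlap, at 7.35 to 7.81 in A+/G+ and 8.16 to 8.94 in A-/G+. Fxyd2, the neighbour of Fxyd6 and the γ subunit known from kidney, had a difference of -0.11 with a 95% confidence interval of -0.40 to 0.17. Fxyd3, Fxyd4, the fourth β gene Atp1b4 and the gastric and colonic proton pump genes Atp4b and Atp12a were not well above background on any array. The pump gene Atp1a4, known from sperm, had a difference of 0.70 and an adjusted p of 0.489. The plasma membrane calcium pump gene Atp2b2 had a difference of 1.55 and an adjusted p of 0.182, and the chloride cotransporter gene Slc12a2 had 0.01 with an interval of -0.29 to 0.31. These counts rest on few arrays: leaving out 1 array at a time gave 0 to 4 list genes higher in A+/G+ (0 without A+/G+ replicate 2, 1 without A+/G+ replicate 1 or A-/G+ replicate 1, 2 without A+/G+ replicate 3) and 0 to 4 higher in A-/G+ (0 without any one A+/G+ replicate or A-/G+ replicate 1, 1 without A-/G+ replicate 2, 4 without A-/G+ replicate 3).

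**Figure D4:**
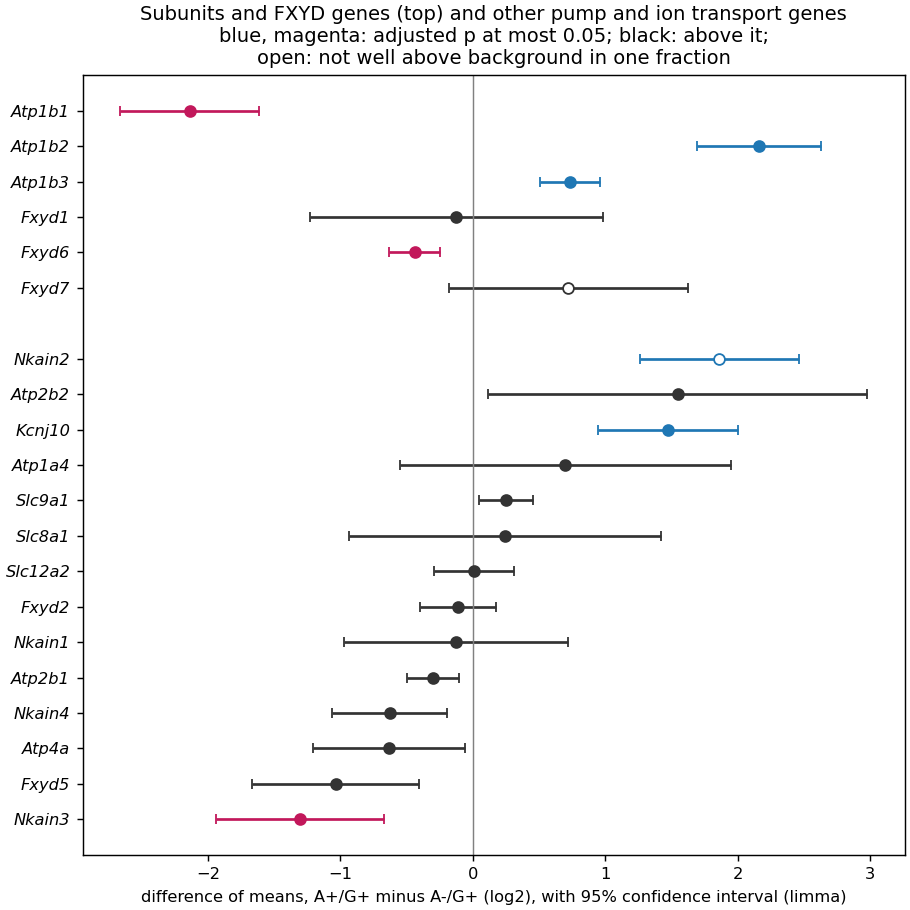
Difference of the mean log2 signals, A+/G+ minus A-/G+ (x axis), with 95% confidence intervals from limma, for the 6 genes (top) and for list genes that were well above background on at least 1 array, sorted by difference. Some list genes that are not reported here are left out of the figure, called ones among them, though the counts in the text include them. Among the called genes shown, Atp1b2, Atp1b3, Nkain2 and Kcnj10 lie to the right, and Atp1b1, Fxyd6 and Nkain3 to the left.

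Marker lists of the cell types that the fractions could hold were read by the same rule. All 6 Bergmann glia markers were called in favour of A-/G+. Their differences had a median of -3.04, and their summed normalized signal was 4133 to 4962 in A+/G+ and 16368 to 24524 in A-/G+. Npy, Gria1, Gdf10 and Wif1 of this list were already reported by the paper for A-/G+ cells from these same arrays. The result for this list is therefore not an independent finding. Of 8 astrocyte markers, 3 were called in favour of A+/G+ and 1 in favour of A-/G+, none was dim on any array, and their summed signal overlapped at 140677 to 154062 and 128137 to 205629. Of 8 pan-neuronal markers, 0 were called in either direction by limma (3 at an unadjusted p under 0.05, and 0 by the methods' t-test), with a median difference of 0.18, and their summed signal was 10520.3 to 17497 in A+/G+ and 7404 to 11771 in A-/G+. Of 6 Purkinje cell markers, 5 were called in favour of A+/G+, their median was 3.92 and their summed signal was 4973 to 13671 against 1586 to 2008. The Purkinje markers Calb1, Car8 and Skor2 were well above background on no A-/G+ array. For them only lower bounds on the fold hold, at 23.9, 2.56 and 1.98. These bounds take the lowest signals well above background as the floor of the A-/G+ arrays. The median of 3.92 lies between Car8 and Skor2, so its size depends on signals near background. Oligodendrocyte lineage markers were called higher in A+/G+ in 3 of 7 and lower in 1 of 7 (13665 to 16319.7 against 2258 to 4258), and ependymal markers higher in 4 of 5 (4045 to 6601 against 412 to 1074), with Dnah5 well above background on no A-/G+ array. Of 5 endothelial markers 1 and of 4 pericyte and smooth muscle markers 2 were called higher in A+/G+, with summed signals of 6849 to 10502 against 1363 to 7132 and 1969 to 2178 against 351 to 746. In the granule neuron list 1 of 6 was called, Pax6, which was higher in A-/G+ (-1.54, adjusted p 0.00730), whereas 4 of 6 had the higher mean in A+/G+ and the median difference was 0.32. Its summed signal (17119 to 20002 against 24278 to 30702) was carried mostly by Zic1, which was not called (-0.60, adjusted p 0.0803), and so ran against the median. Of 4 microglia markers 0 were called by limma, at an unadjusted p under 0.05 or by the methods' t-test (1182 to 2062 against 1452 to 3802). The part of these cell types in the pump gene values was not tested.

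The genes whose profile over the 6 arrays was most like that of each member were found by the root mean square (RMS) distance of the 6 log2 values after each gene was centred on its own mean, among 11466 genes that were well above background on all arrays. Nearest to Atp1b2 were Slc6a9, the glycine transporter GlyT1 of glia, at 0.11 log2 units, Slc24a3, a potassium-dependent sodium/calcium exchanger, at 0.13, and Cgref1 at 0.13. Nearest to Atp1b1 were the transcript AK163513 at 0.06, Gucy1a3, a subunit of soluble guanylate cyclase, at 0.09, and Arid3b, a DNA-binding protein, at 0.12. For Atp1b3 they were Pdha1 (pyruvate dehydrogenase) at 0.04, Bnip3 at 0.06 and Uqcrfs1 (the Rieske protein of respiratory complex III) at 0.06. Alg10b and Pknox1 were among the nearest to Fxyd6, each at 0.03. Fxyd1 was followed most closely by Mpp7 at 0.12, Cgn (cingulin of tight junctions) at 0.15 and Cab39l at 0.15, and the dim Fxyd7 by Nkap, Prickle1 and Fbxo27 at 0.15 to 0.17. Between members, the distance was largest for Atp1b1 and Atp1b2, at 2.15, and smallest for Atp1b3 and Fxyd7, at 0.44, so that no member was among the nearest genes of another. These distances over 6 arrays describe likeness in these samples, and any gene that separates the fractions by a like amount is near by this measure.

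**Figure D5:**
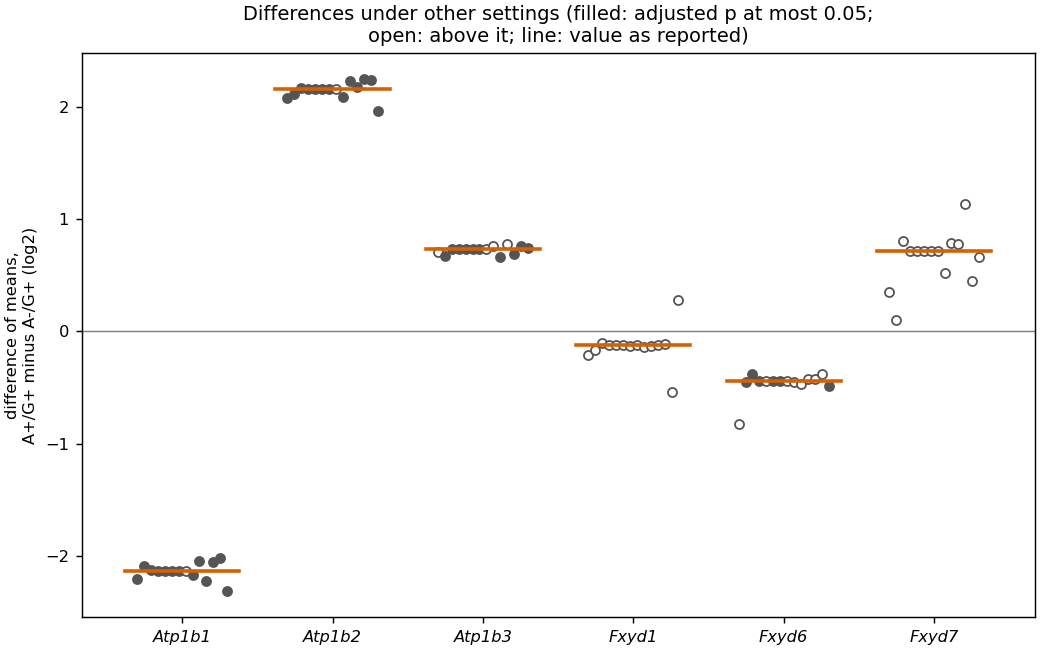
Difference of the mean log2 signals, A+/G+ minus A-/G+ (y axis), for the 6 genes (x axis) under 14 other settings of the processing (points; filled where the adjusted p is at most 0.05) and as reported (line). The differences of Atp1b1, Atp1b2, Atp1b3, Fxyd6 and Fxyd7 keep their sign under all 14, and that of Fxyd1 turns without A-/G+ replicate 3. Settings that alter only the test, its model or the probes tested leave a difference as reported by construction.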

How the data were processed

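Arrays were Agilent 1-colour scanner files, in which the authors deposited the intensity of each spot after background subtraction (processed signal, Agilent Feature Extraction 10.7.3.1, per the file headers), with flags for background, saturation and outliers. The authors' table of log2 values, quantile normalized per the study's methods, served as an alternative. All sample columns were used. The log2 of the processed signal was taken over 59305 gene spots per array, control and outlier-flagged spots were left out, arrays were quantile normalized and spots averaged to 55681 probes. Fractions were compared with limma 3.58.1 in R 4.3.3 (two-sided, Benjamini-Hochberg over all probes). The methods' t-test was an alternative. A probe counted as well above background on an array when a share of at least 0.5 of its spots without an outlier flag was. Arrays hold no counts, and their number (3 per fraction) limits the precision. The fit was tested on simulated data. Named genes were the 6 members, the pump list, Slc1a3 and the 3 nearest profiles per member; choroid plexus and other marker genes were named after their values were seen. Some genes that this rule names are not reported here, though counts over the pump list include them. The members and lists were chosen with earlier results of these data known. Probe sequences came from the scanner files.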

Additional observations from a re-analysis of the deposited data

How the results depend on the processing

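The direction of Atp1b1, Atp1b2, Atp1b3, Fxyd6 and Fxyd7 was the same under all 14 alternatives. Atp1b1 and Atp1b2 lost their calls under the replicate block alone. With the 75th percentile shift, Atp1b3 (0.70) and Fxyd6 (-0.82) each had an adjusted p of 0.0501, 1 member was called in each direction, and 1227 probes were called higher in A+/G+. With the methods' t-test Fxyd6 (-0.44) had an adjusted p of 0.0540, 1 member was called higher in A-/G+, probes called were 1351 and 1197, and list genes 1 and 0. With normexp background correction 5 list genes were higher in A-/G+. The deviations of samples with the same replicate number had an r of 0.20, 0.11 and -0.11 for numbers 1, 2 and 3, over 17949 probes. Between samples with different numbers r ranged from -0.24 to 0.17. With 3 samples per fraction, these values cannot settle whether the numbers pair the samples. With the replicate number as a block, Atp1b2 (2.16), Atp1b1 (-2.14), Atp1b3 (0.73) and Fxyd6 (-0.44) had adjusted p-values of 0.0657, 0.0814, 0.0751 and 0.0963, and 0 members, 0 list genes and 0 probes were called in either direction or past both limits by limma (5 members, 11 list genes and 11671 probes at an unadjusted p under 0.05). Leaving out 1 array at a time gave 0.67 to 0.78 for Atp1b3, -0.49 to -0.38 for Fxyd6 and -0.54 to 0.28 for Fxyd1, which turned without A-/G+ replicate 3 (0.28). It gave 1 to 2 members called in each direction, 1 to 2 past both limits, 825 to 4469 probes higher in A+/G+ and 409 to 4622 higher in A-/G+, and 0 to 4 list genes in each direction. The slide as a block could not be fitted, since each slide held 1 fraction. The mean of all probes per gene was not run, as each member has 1 probe.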
